A study of Homo sapiens with 3 samples.

Results

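Wide distal ZBTB11 peaks are the broad stretches of ChIP-seq enrichment that lie away from every annotated transcription start. They were taken from the ZBTB11 peak list of NCI-H1299 cells, a human lung cancer line, by a rule with 5 parts. A peak had to lie on chromosomes 1 to 22 or X, be at least 500 bp wide, lie more than 3 kb from every GENCODE transcript start, have its summit outside coding exons, and overlap no peak of the IgG list. Of the 348392 peaks in the ZBTB11 list, 346803 were on these chromosomes and 51238 of those reached the width. The distance left 33234 peaks, of which 239 had a summit in a coding exon and a further 780 overlapped an IgG peak, so that 32215 peaks remained, or 9.29% of the peaks on these chromosomes. Width and the absence of an IgG peak are themselves measured values, so the members were selected on readout, and the heights and widths given here, alone or beside other peaks, describe that choice and were not tested.

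The study profiled where ZBTB11 sits on chromatin in this line. Cells were untreated and wild type in the sense of not engineered, as the paper describes the line as p53-null. They were fixed with formaldehyde, and the chromatin was precipitated with an antibody to ZBTB11 or with normal IgG, an antibody with no intended target. There was 1 library per antibody, so no value below has a replicate check, and the intervals given (95%) cover counting error over peaks only. An input library was not analysed here. Peak lists carry no expression values, so the identity of the line was not checked against marker genes.

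ZBTB11 belongs to a family of proteins that join a BTB domain, used for contacts between proteins, to zinc fingers, which read DNA. Promoter peaks sit at the starts of genes, whereas distal elements, among them enhancers, lie in introns or between genes and can act on starts far along the chromosome. The word GGAA, with the right bases around it, is the core read by the ETS family of transcription factors, and TGANTCA (N is any base) is the site of AP-1, the dimer of FOS and JUN proteins. Alpha satellite is a tandem repeat that fills human centromeres, where short reads can seldom be placed uniquely. A word in the DNA under a peak says nothing by itself about which protein was bound.

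The windows that carry the main results are shown first, each a summit with 50 bp to either side, on the plus strand of hg38. Words were read on both strands. Capitals mark the heptamer consensus, CCGGAAG (the C form) or CAGGAAG (the A form), in either orientation, or the AP-1 word. The first set holds examples among the strongest single-copy members with the C form, picked after their values were seen: near ZFP36L1, which promotes decay of mRNAs, at chr14:68824911-68825011, near MRPL48, a protein of the mitochondrial ribosome, at chr11:73779688-73779788, and near PLXND1, a semaphorin receptor, at chr3:129626851-129626951.
ZFP36L1: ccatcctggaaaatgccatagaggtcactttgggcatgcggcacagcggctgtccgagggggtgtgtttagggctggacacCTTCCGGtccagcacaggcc
MRPL48: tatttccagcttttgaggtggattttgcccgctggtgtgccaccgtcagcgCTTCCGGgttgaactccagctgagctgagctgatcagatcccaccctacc
PLXND1: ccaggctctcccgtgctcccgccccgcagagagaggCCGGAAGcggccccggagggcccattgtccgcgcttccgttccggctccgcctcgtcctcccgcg

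The second set holds strong members with the A form, the commoner form at these peaks: in an intron of the long non-coding RNA FIRRE at chrX:131822104-131822204, named here by its nearest protein-coding start, that of the kinase STK26 at 201148 bp, near GNA12, an alpha subunit of G proteins, at chr7:2863727-2863827, and in an intron of AXL, a receptor tyrosine kinase, at chr19:41250171-41250271. The window in an intron of SKI, a co-repressor of TGF-beta signalling, at chr1:2256015-2256115, is added because it repeats the shorter core CAGGAA 3 times without the full consensus. MACF1, a cytoskeletal crosslinker, gives an example of the AP-1 word at chr1:39392224-39392324.
STK26: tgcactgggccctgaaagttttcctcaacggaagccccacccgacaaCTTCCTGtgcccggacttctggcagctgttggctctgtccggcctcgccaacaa
GNA12: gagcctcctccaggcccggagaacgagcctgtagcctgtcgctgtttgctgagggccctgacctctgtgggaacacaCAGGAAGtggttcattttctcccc
AXL: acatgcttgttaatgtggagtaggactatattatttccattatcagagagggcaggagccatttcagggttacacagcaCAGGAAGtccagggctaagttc
SKI: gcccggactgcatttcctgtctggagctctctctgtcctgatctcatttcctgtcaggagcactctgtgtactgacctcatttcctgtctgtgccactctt
MACF1: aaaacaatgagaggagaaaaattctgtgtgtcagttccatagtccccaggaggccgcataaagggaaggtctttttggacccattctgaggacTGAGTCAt

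The last set holds members whose summit sequence is repeated in the assembly. The first of them, at chr16:89241050-89241150 near ZNF778, is a tandem array that carries the C form 3 times. The others have no consensus and lie near centromeres, nearest to SPATA31A6 (chr9:45049803-45049903), ALG10 (chr12:35597162-35597262) and ZNF716 (chr7:60418816-60418916).
ZNF778: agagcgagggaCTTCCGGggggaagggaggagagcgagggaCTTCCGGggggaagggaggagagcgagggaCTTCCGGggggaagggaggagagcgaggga
SPATA31A6: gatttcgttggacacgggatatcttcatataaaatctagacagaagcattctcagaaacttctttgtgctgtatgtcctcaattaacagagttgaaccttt
ALG10: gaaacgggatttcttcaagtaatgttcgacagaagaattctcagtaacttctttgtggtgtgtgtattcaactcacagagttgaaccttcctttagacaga
ZNF716: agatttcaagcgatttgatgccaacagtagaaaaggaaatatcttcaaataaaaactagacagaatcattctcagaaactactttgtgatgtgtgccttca

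Most wide distal peaks were low. The pileup, the number of fragments stacked at the summit, was worked back from its fold enrichment and p-value and had a median of 5, with the middle 50% of peaks between 4 and 6 and a highest value of 470. A pileup of at most 6 was found at 79.6% of members and one of at least 20 at 2.58%. The genome-wide background of the list was 1.35 fragments, so a typical member stood only a few fragments above it. The median width was 588 bp and the widest peak was 3137 bp. A q-value (the p-value corrected for the number of tests) of at most 0.05 was reached by 3937 members (12.2%), and a p-value of at most 1e-05 by 2191 (6.80%), which are called strong members below.

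The width limit did not fall at a step in the list. The 2406 members less than 10 bp over the limit had a median fold enrichment of 2.25, and 3.16% of them were strong. The 2518 peaks that missed it by 10 bp or less had a median fold of 2.32 and a strong share of 3.46%. The share of strong peaks climbed with width inside the set, from 3.93% among those narrower than 600 bp to 30.04% among the 749 members of at least 1000 bp. At the limit of distance, the 824 members within the next 500 bp outwards had a strong share of 6.31%, and 834 peaks within 500 bp inwards had one of 5.995%.

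The IgG list bears on this set only in part, because among the chromosomes of the members it has peaks on 1, 10 and 21 alone. On these chromosomes lay 3713 members, and the other 28502 (88.5%) lay on 20 chromosomes where an overlap with IgG could remove nothing. On chromosomes 1, 10 and 21 the same rule, applied to the IgG list in turn, gave 1479 wide distal IgG peaks that overlapped no ZBTB11 peak. The comparison of these counts is a description with no test, because height and the absence of an overlap belong to the choice of peaks, and because the depth of each library is unknown.

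The numbers of ZBTB11 and IgG peaks compared differently at different heights. Below a pileup of 6 there were 2806 ZBTB11 and 501 IgG peaks, and at 6 or more there were 907 and 978. Where the 31 bases at the summit occurred once in the assembly (single-copy summits), a pileup of at least 8 was reached by 162 against 113 peaks, one of at least 10 by 96 against 14 and one of at least 20 by 39 against 0. At p of at most 1e-05 the single-copy counts were 104 and 16. Repeated summits numbered 17 and 20 at a pileup of at least 10, 19 and 9 at p of at most 1e-05, and 729 and 333 at any height.

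The same counts before any peak was removed for overlap differed by copy number as well. All wide distal peaks with a pileup of at least 10 numbered 382 for ZBTB11 and 321 for IgG, and at p of at most 1e-05 they numbered 396 and 302. At single-copy summits the counts were 133 and 25 at a pileup of at least 10, and 141 and 27 at p of at most 1e-05. At repeated summits they were 249 and 296, and 255 and 275. At these heights ZBTB11 thus had the larger count at single-copy summits, with or without the removal, and the smaller one at repeated summits before it.

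**Figure D1:**
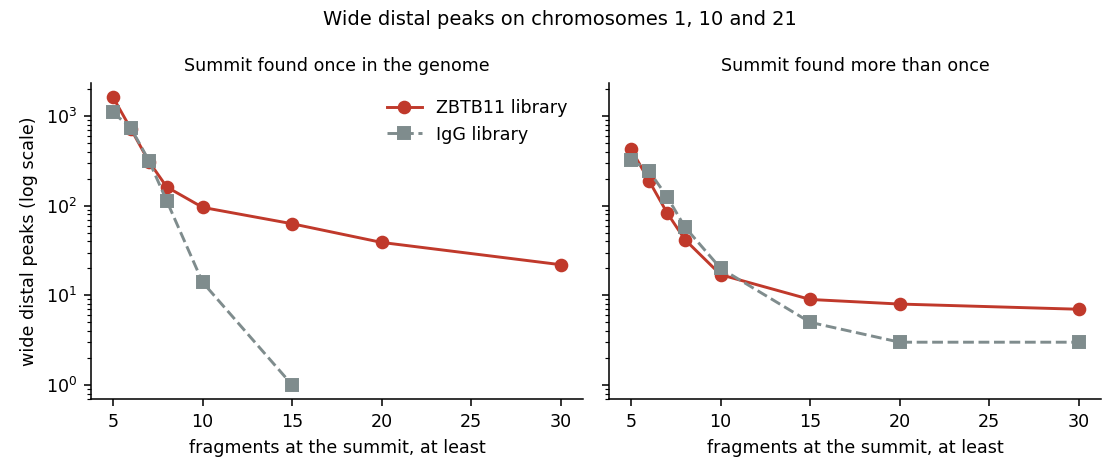
Number of wide distal peaks on chromosomes 1, 10 and 21 (log axis) at or above each summit pileup, for ZBTB11 and IgG peaks that do not overlap the other list, with single-copy and repeated summits apart. Single-copy counts are near each other at pileups of 6 and 7 and part from 10 upwards (96 against 14), where repeated summits number 17 against 20, and counts of 0 are not drawn.

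Repeats made up a large part of the strongest members. Over all 32215 members, 76.0% had a single-copy summit and 12.54% had a summit sequence with over 100 copies. The single-copy share was 80.9% for p above 0.001, 36.6% for p between 1e-20 and 1e-05 (n = 1782) and 58.7% for p of at most 1e-20 (n = 409). Of the 2191 strong members, 893 (40.8%) were single-copy and 1298 were not. The count asks for exact matches of 31 bases, so a diverged repeat counts as single-copy.

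Among strong members, repeats were fewer where IgG peaks could remove them. On chromosomes 1, 10 and 21, 19 of 123 strong members (15.4%) had a repeated summit, against 1279 of 2068 (61.8%) on the other chromosomes. This gap follows from the rule: among the strong wide distal peaks that the IgG overlap had removed, 236 of 273 (86.4%) were repeated, and with them put back the share on chromosomes 1, 10 and 21 was 64.4% (255 of 396). How many repeated members lie under IgG signal on the other 20 chromosomes was not tested, since the IgG list has no peak there.

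**Figure D2:**
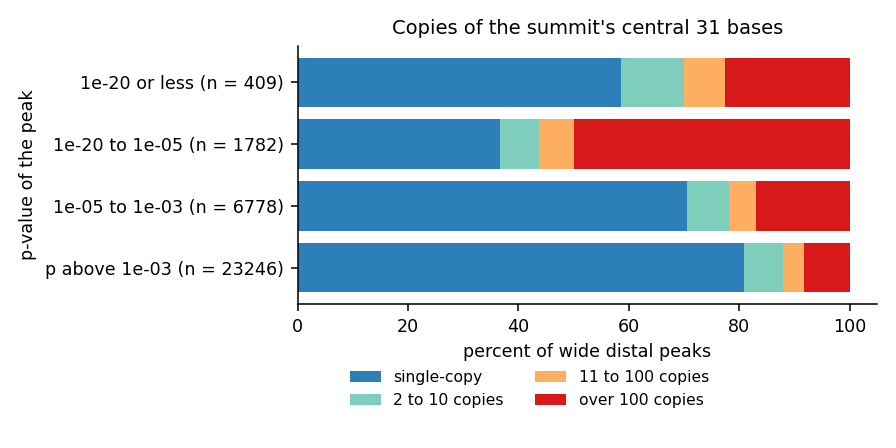
Percent of members whose central 31 bases occur once, or in larger numbers, in the hg38 assembly, by p-value of the peak. The single-copy share falls from 80.9% at p above 0.001 to 36.6% between 1e-20 and 1e-05, and is 58.7% at p of at most 1e-20.

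The repeated strong members shared sequence with each other. The 14 bases cattctcagaaact, common to the SPATA31A6 and ZNF716 windows above, occurred within 250 bp of the summit in 48.4% of the 1298 strong repeated members, in 1.01% of the 893 strong single-copy members and in 3.60% of the other members. The 15 bases acagagttgaacctt, common to the SPATA31A6 and ALG10 windows, were found in 35.1%, 0.448% and 2.09% of these groups. Both stretches were chosen after the windows had been read. Of the strong repeated members, 94.9% were intergenic, and their median distance to a protein-coding start was 1469236 bp. The consensus was seen in 1.39% of them, close to the 1.16% of their flanks.

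A few of the strongest repeated members were of another kind. The ZNF778 peak had the highest pileup of all members (470, at 15.4 times the local background), and its summit sequence had 7 copies. A peak at chr5:71289703-71290545, nearest to BDP1, a subunit of TFIIIB, had a pileup of 328 and carried the C form at 2 places, also with 7 copies. A peak at chr7:75156455-75157219 with a pileup of 388 had its summit in an exon of the pseudogene NCF1C and no consensus.

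The strongest single-copy members were far above background. Of these, the 10 with the smallest p-values had pileups of 275 to 435. The first was a peak at chr3:93470214-93470957 with a pileup of 435. It lay 415859 bp from the start of PROS1, the anticoagulant protein S, in sequence of only 19.9% GC. The stretch tattttatgtaca recurs within its summit window. The copy count asks for exact matches and would miss a diverged repeat, so its single-copy label does not show that the site is unique. Whether the peak lies in such a repeat was not tested. The next, at chr17:2975154-2975987 in an intron of RAP1GAP2, an activator of the GTPase activity of Rap1, had a pileup of 428, and a RefSeq transcript starts inside that peak. A peak nearest to NELL2, a secreted glycoprotein of neurons, lay 26971 bp from its start and had a pileup of 420. One nearest to CHD6, a chromatin remodeller, had a pileup of 427. It lay 75123 bp from the CHD6 start, in an intron of a long non-coding RNA. None of these 4 windows held the consensus, and of the 10 only those near ZFP36L1 (389), MRPL48 (275) and XPO7, a nuclear export receptor (318), held it, each in the C form.

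The strongest members on chromosomes 1, 10 and 21, which had passed against IgG peaks, were lower. These chromosomes hold only 104 of the 893 strong single-copy members. Strong single-copy peaks removed there for IgG overlap had pileups up to 214. MACF1 had a pileup of 160 in an intron, 5087 bp from the start of the gene, and DNAJB12, a chaperone partner of the endoplasmic reticulum, had one of 156 at a distance of 16108 bp. SKI followed with 101. Members nearest to NRP1, a co-receptor of semaphorins and VEGF, and to LTN1, a ubiquitin ligase of ribosome quality control, each had a pileup of 67. They lay 51002 bp and 9789 bp from those starts.

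In place along genes, wide distal peaks as a whole resembled the sequence open to them. An intron held 52.2% of summits (Wilson interval 51.6 to 52.7), intergenic DNA 45.5% and a non-coding exon 2.32%. Of all bases that a summit could occupy under the rule, 54.2% were intronic, 43.8% intergenic and 2.07% in non-coding exons. The wide distal IgG peaks were 62.3% intronic, but on chromosomes 1, 10 and 21 alone, where members were 57.2% intronic. The strong members split by copy number. All strong members together were 22.9% intronic and 75.1% intergenic, whereas the strong single-copy members were 49.4% intronic (46.1 to 52.7) and 46.2% intergenic. Introns of protein-coding genes held 349 (39.1%) of the strong single-copy summits.

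Strong single-copy members lay nearer to genes than the whole set. Their median distance to a protein-coding start was 19773 bp, against 53898 bp over all members. Of them, 28.8% were closer than 10 kb, 44.3% were at 10 to 50 kb and 14.4% were beyond 100 kb. A start of a RefSeq transcript, an annotation the rule did not use, lay within 3 kb of 46 of the 893 (5.15%). These are distal in GENCODE alone. The RefSeq starts used appear incomplete, with no distance for the named members on chromosome 8, which holds 53 of the 893. Among strong single-copy promoter peaks 79.3% had such a start within 3 kb. The share of 5.15% is therefore a lower bound.

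At the summits of all 32215 members the consensus was scarce. It occurred in 3.44% of windows (3.25 to 3.64), against 2.66% in windows of the same length 500 bp to either side, a ratio of 1.29. The wide distal IgG peaks, on chromosomes 1, 10 and 21 alone, held it in 3.18%. The difference of 0.262 percentage points from members of all chromosomes had an interval from -0.779 to 1.07. None was detectable between these sets, which differ in chromosomes. On chromosomes 1, 10 and 21 the ratio of members to flanks was 1.42. Narrow distal peaks held the consensus in 2.82%, which was 0.615 points lower than all members (0.410 to 0.830), and wide peaks at promoters in 13.9%. Among single-copy members with p above 0.001 the share was 3.11%, against 2.75% in flanks.

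Among the strong single-copy members the consensus was frequent. It was found in 205 of 893 windows (22.96%, 20.3 to 25.8), against 4.65% in flanks, a ratio of 4.94. Single-copy wide promoter peaks past the same p-value, which were taller (median pileup 26 against 17), held it in 24.7% of 7550 windows, and the difference of -1.77 points (-4.59 to 1.25) did not exceed counting error. Single-copy narrow distal peaks past it, which were lower (median pileup 10), held it in 13.9% of 625 windows, 9.04 points less (5.09 to 12.8), and with p of at most 1e-20 the difference was 11.1 points (-12.6 to 25.7, with 18 narrow peaks). The part of height in these differences was not tested. On chromosomes 1, 10 and 21 the share was 26.0% of 104 windows, and of the 16 strong single-copy IgG peaks 2 held it. Of the 37 strong single-copy peaks that the IgG overlap had removed, 9 held it (24.3%). By width the share was 20.2% below 600 bp, 24.5% and 25.6% in the classes up to 800 and up to 1000 bp, and 18.8% of the 85 members wider than that, with intervals that overlap. Further from genes it was little lower, at 21.4% of the 636 members at least 10 kb from a protein-coding start against 26.8% of the 257 nearer ones.

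The form of the word differed from that at promoters. The A form was found in 17.1% of strong single-copy distal windows (flanks 4.26%) and in 7.88% of promoter windows, a difference of 9.25 points (6.84 to 11.9). The C form, which contains a CpG, was found in 6.16% (flanks 0.392%) against 17.7% at promoters, a difference of -11.6 points (-13.2 to -9.60). Of the windows with the consensus, 26.8% of the distal ones (55 of 205) and 71.7% of the promoter ones (1338 of 1867) held the C form, a difference of -44.8 points (-50.8 to -38.1). In narrow distal peaks the A form stood at 12.8% and the C form in 11 of 87 windows with the consensus (12.6%), so that the lead of the A form was not particular to wide distal peaks. Against its own flanks the C form stood higher at distal summits (ratio 15.7, with 7 flank windows) than the A form (4.03).

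**Figure D3:**
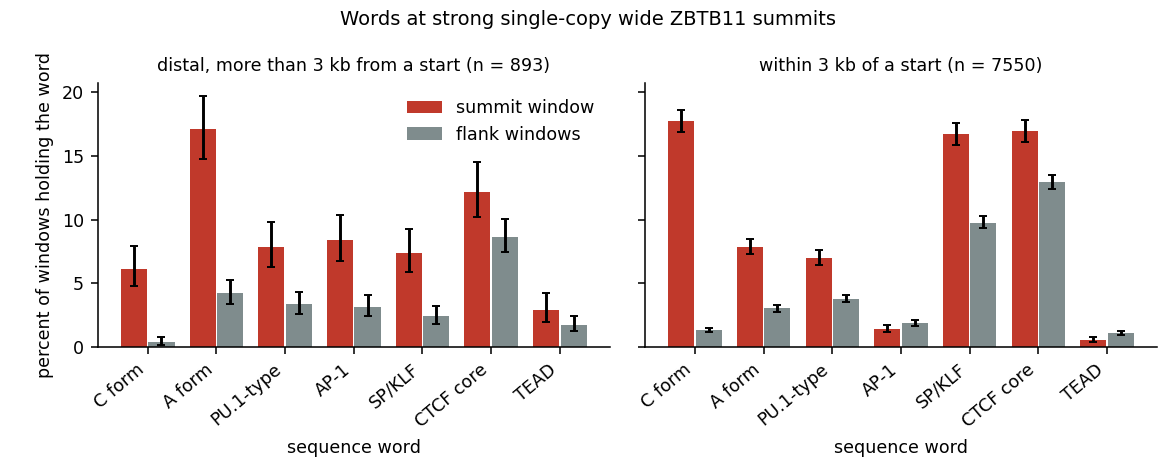
Percent of strong single-copy summit windows that hold each word, with 95% Wilson intervals, for wide distal peaks (n = 893), wide promoter peaks (n = 7550) and the flanks of each. The A form stands at 17.1% in distal and 7.88% in promoter windows, the C form at 6.16% and 17.7%, and AP-1 at 8.399% and 1.404%.

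Every 7-letter word was also counted without a list. Of 1251 words present in at least 2% of the strong single-copy distal windows, CAGGAAG had the largest difference from flanks in percentage points, and other high words, such as ACAGGAA, overlapped it. In this order CCGGAAG ranked 7 and the AP-1 word TGACTCA ranked 18. At promoters CCGGAAG came at the top and CAGGAAG ranked 50. By ratio to flanks CCGGAAG stood above CAGGAAG at distal summits too, as given above. Cut to 6 letters, a choice made after seeing these values, CAGGAA was in 28.9% of distal windows (flanks 9.91%) and 13.8% of promoter windows, and CCGGAA in 11.5% (flanks 1.46%) and 27.7%. Either core was in 38.5% of distal and 38.6% of promoter windows. The base before the A form was A in 52.1% of its distal copies (88 of 169) and 29.8% of its promoter copies (186 of 624), as in the AXL and GNA12 windows.

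The consensus was more frequent still at the very strongest sites. With p of at most 1e-20, 80 of 240 single-copy members held it (33.3%, 27.7 to 39.5), against 36.0% of 3324 promoter peaks under the same limits. The A form was in 21.7% of these members and 8.66% of the promoter peaks, and the C form in 30 of the 240 and in 28.9% of the promoter peaks. The order of the forms was thus the same as among all strong members.

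The C form and the A form gathered near the summit. Counted in bins of 20 bp over the 893 strong single-copy members, the A form reached 4.70 copies per 100 peaks in the bins 20 and 40 bp to the right of the summit, and the C form reached 2.13. In promoter peaks the C form stood at 4.38 copies per 100 peaks and the A form at 1.99 in the bin 20 bp to the right. In the STK26 window the A form lay at the summit itself, and at MRPL48 the C form lay 4 bp from it.

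**Figure D4:**
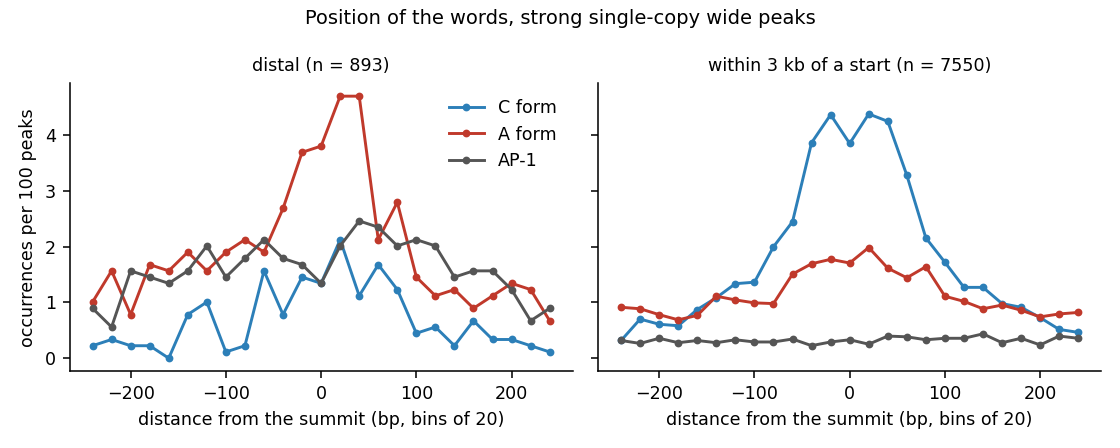
Copies of the C form, the A form and the AP-1 word per 100 strong single-copy peaks in bins of 20 bp, by distance from the summit in bp, for wide distal and wide promoter peaks. Both forms pile up within about 50 bp of the summit, the A form to 4.70 in distal peaks and the C form to 4.38 in promoter peaks. The AP-1 word stands at 1.34 in the summit bin of distal peaks.

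AP-1 words also differed from promoters. TGANTCA was found in 75 of 893 strong single-copy windows (8.399%, flanks 3.14%), against 1.404% at promoters, a difference of 6.99 points (5.32 to 9.01). Strong single-copy narrow distal peaks held it in 6.24%, and the difference of 2.16 points (-0.570 to 4.75) did not exceed counting error. At intronic members it reached 12.7% of 441 (flanks 2.83%), and at intergenic ones 4.36% of 413 (flanks 3.75%). The A form followed the same order, with 22.7% in introns and 11.4% in intergenic DNA, whereas the C form stood at 7.75% in intergenic DNA. Both the consensus and AP-1 were found in 23 windows, 82.6% of them in introns, and neither in 636 (71.2%). Copies of TGANTCA did not gather at the distal summit as the A form did. They stood at 1.34 per 100 peaks in the summit bin, 2.46 in the bin 40 bp to the right and 2.13 in that 100 bp to the right. A missing word says only that these letters were not in the window.

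Other words were tried as well. GAGGAAG, an ETS word favoured by PU.1, was in 7.84% of strong single-copy windows (flanks 3.36%), and GGGCGGG, a word of SP and KLF factors, in 7.39% (flanks 2.41%). AGGNGGC, part of the CTCF core, was in 12.2% (flanks 8.68%). GGAATGT, the word of TEAD factors, was in 2.91% (1.99 to 4.23) against 1.74% in flanks (1.23 to 2.45), intervals that overlap.

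Base composition moved with the form. The median GC content over 100 bp to either side of the summit was 54.2% at strong single-copy members, 39.8% over all members and 67.7% at the promoter peaks past the same p-value. A CpG ratio (observed over expected) above 0.6 was found at 30.1% of strong single-copy members and 85.6% of those promoter peaks. The 238 members with such a ratio and over 50% GC held the C form in 13.4%, the A form in 7.14% and AP-1 in 1.26%, while the other 655 held them in 3.51%, 20.8% and 10.99%. The first group had a RefSeq start within 3 kb in at least 10.1%, the second in at least 3.36%. Whether unannotated starts account for part of either was not tested. Members with the C form alone had a median pileup of 35, and those with the A form alone one of 20.

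The large clusters of wide distal peaks consisted of repeats. With members joined when at most 12500 bp apart, 9986 (30.998%, 30.5 to 31.5) had a neighbour, in 4172 clusters, 18 of which held 10 or more members. The largest, of 38 members, spanned chr9:43432906-43643846 nearest to SPATA31A6. It consisted of repeated summits only, with a median of 942.5 copies and pileups up to 28. Clusters of 34 and 32 members followed at chr12:35254453-35459500 and chr12:35009245-35189526, both nearest to ALG10, with pileups up to 115 and 120. None of the 10 largest clusters held a consensus at any summit.

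Without the repeats, clusters were small. Among single-copy members alone 23.9% had a neighbour, and the largest clusters, nearest to RIMS1 and TMEM232, held 6. Of the 893 strong single-copy members, 52 (5.82%) had another within 12500 bp, always as a pair. The pairs included one nearest to ZFP36L1 at chr14:68815929-68825343, one nearest to SHCBP1 within 2.67 kb (highest pileup 363) and one nearest to IER2, an immediate early gene (73). The SHCBP1 peak is not among the 10 single-copy members with the smallest p-values, which include lower pileups such as that of MRPL48 (275). Its pileup alone therefore does not rank it, because p is taken against local background. On chromosomes 1, 10 and 21 the clustered share was 23.4%, against 32.0% elsewhere. A cluster of 5 single-copy members nearest to NRP1, at chr10:33096961-33134917, held 1 strong member.

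**Figure D5:**
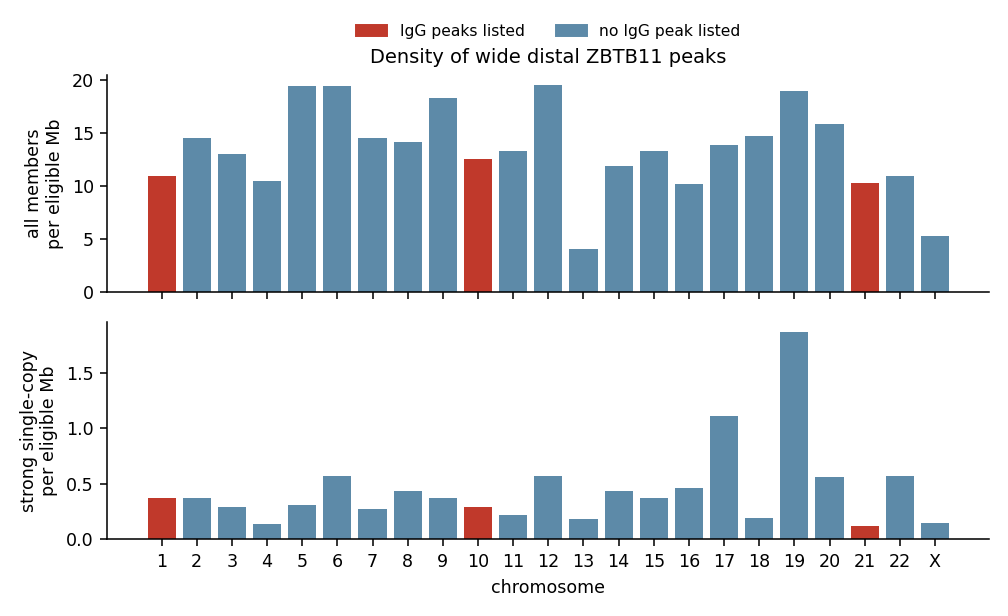
Wide distal ZBTB11 peaks per eligible megabase on each chromosome, all members and strong single-copy members, the chromosomes with IgG peaks marked. All members range from 4.02 per megabase on chromosome 13 to 19.5 on chromosome 12, and strong single-copy members from 0.123 on chromosome 21 to 1.86 on chromosome 19.

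Density differed between chromosomes in another order for all members than for the strong ones. All members numbered 4.02 per eligible megabase on chromosome 13 and 5.27 on X, and 19.5, 19.4 and 19.4 on chromosomes 12, 5 and 6. Strong single-copy members were densest on chromosome 19 (1.86) and 17 (1.11), chromosomes rich in genes. The copy number of each chromosome in this line was not analysed here.

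Nearest genes were many. A member's summit was nearest to the start of 8689 of 19970 protein-coding genes (43.5%), and 5621 (28.1%) held a summit in the gene body. The strong members were nearest to 947 genes (4.74%), and the 893 strong single-copy members to 804. The genes with the highest counts lay beside centromeres: SPATA31A6 with 211 members, ZNF716 with 204, ALG10 with 203 and ROCK1, a kinase of the actin cytoskeleton, with 158. Between 94.6% and 98.7% of the members of these 4 genes were repeated. Counting single-copy members only, the leaders were PCDH7, a protocadherin, with 81, ARAP2 with 66 and TENM2, a teneurin adhesion protein, with 52, all with a median pileup of 5.

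The study names a set of genes that are taken here as a list of 17. Of these, 10 (58.8%) were nearest to a member, against 43.5% of all protein-coding genes, and 3 to a strong member, against 4.74%. With only 17 genes, which differ in the length of DNA around them, no more is drawn from these counts. MMP9, a gelatinase of the extracellular matrix, had a member at chr20:46014175-46014710 with a pileup of 30 and a fold enrichment of 8.36. Its summit was 5604 bp from the MMP9 start, inside the gene and in an exon of the long non-coding RNA SLC12A5-AS1, and its window held neither consensus nor AP-1. PECAM1, an adhesion molecule of endothelium, had 2 strong members, the higher with a pileup of 9, and the strongest near STX16, a syntaxin, had a pileup of 11. SPARC and SPP1, matrix proteins, had members of pileup 5, and PRRG2 and ZBTB11 itself had none.

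Targets and partners of YAP1 and TEAD, the end of the Hippo pathway, were nearest to a member in 12 of 14 cases (85.7%, against 43.5% of all genes) and to a strong member in 5 (background 4.74%). The list is short and its genes differ in the length of DNA around them, so no more is drawn from these counts. WWTR1, the co-activator TAZ, had an intronic member at chr3:149581765-149582266 with a pileup of 36, 5732 bp from its start. AXL had one in an intron with a pileup of 37, although the nearest start, at 12275 bp, was that of HNRNPUL1, and its A form lay 32 bp from the summit. TEAD1 had an intronic member of pileup 16, LATS2, a Hippo kinase, one of 15 and AMOTL2 one of 11. CRIM1 had 23 members, the strongest (17) 964521 bp from its start. YAP1, CCN1 and CCN2 had members of pileup 5, 7 and 6, levels common in the IgG list also.

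AP-1 genes were nearest to members in 5 of 10 cases (background 43.5% of all genes) and to strong members in 3 (background 4.74%). The limits given for the other lists hold here too. JUN had a member of pileup 9 with an A form 25 bp from the summit, 28259 bp from its start. ATF3 had one of 10, its summit 51265 bp from the ATF3 start in GENCODE but the peak only 241 bp from a RefSeq start. JUND had one of 13 in a peak that holds a RefSeq start. FOSL2 had 7 members, the strongest with a pileup of 5, and FOS, FOSB and FOSL1 had none.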

How the data were processed

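ChIP-seq of ZBTB11 and of IgG in NCI-H1299 cells gave 1 library each. Per the study's methods, the authors used BWA for alignment to hg38 and ran MACS on each antibody alone, at a p-value threshold of 0.05. The deposited lists give per peak a fold enrichment over local background (a ratio), a −log10 p-value and a −log10 q-value. Read totals are not in the lists, so depth is seen only through the genome-wide background, 1.35 fragments for ZBTB11 and 1.55 for IgG. A low threshold keeps peaks of a few fragments.

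From these values the summit pileup and its background were recovered, taking fold enrichment as (pileup + 1)/(background + 1) and p as a Poisson tail. All peaks were solved within 0.01. Places and starts came from GENCODE release 44 (RefSeq as a second annotation) and sequence from hg38. Copies are exact matches, on both strands, of the central 31 bases in the assembly without alternate and patch sequences. Intervals were Wilson for shares and Newcombe for differences. They treat peaks as independent, which neighbours and repeats are not.

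The members, lists, words and the divisions by p-value and copy number were chosen with earlier results of these data known. For listed genes the strongest member nearest to, or inside, the gene is named, beside the strongest members of each class. Scripts (Python 3.11.15, pysam 0.24.0, SciPy 1.17.1) were tested on simulated data. Alternatives varied width, distance, windows, flanks, copy length, cluster gap, gene set and significance.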

Additional observations from a re-analysis of the deposited data

Results flagged for a closer look

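Outside chromosomes 1 to 22, X and Y, on unplaced scaffolds and the mitochondrial genome, the ZBTB11 list had 145 peaks of at least 500 bp that overlapped no IgG peak, and the IgG list had 112 that overlapped no ZBTB11 peak. They are listed because no comparison above uses them. No cause was tested. With 1 library per antibody, no group was large enough to look for a library standing apart.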

How the results depend on the processing

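Of 53 alternatives, 10 kept their value within the limits set (1.5 times for a count, the counting interval for a share, ratio or difference), 43 moved and 0 reversed. Those restricted to chromosomes 1, 10 and 21, or to p of at most 1e-05, were chosen after seeing the data. The number of members (32215) became 6877 at a minimum width of 700 bp, 67017 at 400 bp and 3937 with q of at most 0.05. The intronic share (52.2%) was 47.1% at 700 bp, 47.04% beyond 10 kb from starts, 30.9% by q-value, 38.5% for introns of protein-coding genes, 57.2% on chromosomes 1, 10 and 21 and 22.9% at p of at most 1e-05. The consensus ratio to flanks (1.29) was, in the same order without the introns, 1.63, 1.21, 2.82, 1.42 and 3.95, and 1.42 for single-copy summits, or 4.94 with p of at most 1e-05 as well. The single-copy share (76.0%) was 71.1%, 74.3%, 49.7%, 80.4% and 40.8%, and 83.6% by the central 51 bases. The clustered share (30.998%) was 11.2%, 32.1%, 28.8%, 23.4% and 33.4%, with 23.9% for single-copy summits, 11.3% within 5 kb and 74.0% within 50 kb. Nearest genes (8689) were 3686 at 700 bp, 1922 by q-value, 1308 on chromosomes 1, 10 and 21, 947 at p of at most 1e-05 and 16132 with genes of any kind. The consensus share of wide over narrow distal peaks (0.615 points) was 1.46 at 700 bp, 0.284 beyond 10 kb, 3.79 by q-value, 1.18 on chromosomes 1, 10 and 21 and 5.87 at p of at most 1e-05, with 0.403 and 0.929 in windows of 25 and 100 bp to either side, and 0.992 for single-copy summits, or 9.04 with p of at most 1e-05 as well. No paired analysis was possible because each antibody has 1 library. Read totals are unknown and the genome-wide backgrounds differ (1.35 fragments for ZBTB11, 1.55 for IgG), which limits every count set beside IgG.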
